A study of Mus musculus with 8 samples.

Results

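The genes described here are 33 transcripts that mark the endothelial cells of blood vessels, read from whole mouse gastrocnemius, the large calf muscle. They were taken from a list of symbols that was chosen with earlier results of these data known. The probe set with the highest mean log2 signal and a single gene symbol stood for each. All 33 had such a probe set, out of 18193 genes with one, and all 33 passed the signal filter that kept 11062 genes for testing. Each of the 8 samples was total RNA on 1 Affymetrix array. The WT group (n = 4) was labelled wild type and the GR_KO group (n = 4) was labelled GR KO, both on the C57/Bl6J background and from untreated muscle as far as the labels say. GR is the glucocorticoid receptor, which Nr3c1 encodes and which switches genes on or off when hormone binds it, and the design text calls the mutant muscle GR(i)skm-/-. The promoter that drives the deletion, any inducing agent, age and sex were not stated in the labels or design text, nor was whether the endothelial cells of the mutant muscle keep the receptor. The comparison asks how transcript levels in muscle differ after disruption of this receptor.

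Endothelial cells line capillaries, arteries and veins, and in skeletal muscle a dense capillary bed runs along every fibre. VEGF released by fibres and other cells acts on receptor tyrosine kinases of the endothelium, angiopoietins act on Tek, and cadherin and claudin junctions hold the vessel wall together. Transcription factors of the ETS and SoxF families keep many of these genes on, and glucocorticoids are known as regulators of vessel tone and vessel growth. In RNA from whole muscle, a change in the number of endothelial cells and a change in endothelial RNA per cell cannot be told apart.

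None of the 33 genes passed the test, but 28 of them had a higher mean in GR_KO muscle. Their median log2 fold change was 0.27, a 1.21-fold difference, against 0.013 over all genes tested. Of the 33, 28 (84.8%) lay above 0, where 52.2% of all genes did. No member passed an adjusted p of 0.05 in limma in either direction, and their adjusted p-values lay between 0.880 and 0.947. In the same fit 0% of all genes passed as higher and 0.0542% as lower. At an unadjusted p under 0.05, 7 members were higher and 0 lower, where the background was 2.37% for higher genes, 2.26% for lower genes and 4.63% for both together. These 7 were Cldn5, Ephb4, Ptprb, Apln, Sox18, Kdr and Eng. The 4 GR_KO signals lay above all 4 WT signals for 5 members, against a background of 1.28%, and below them for 0 members, against 1.29%. The count of 5 was 1 after median centring, and it was 8 without WT replicate 1, 10 without GR_KO replicate 1 (1 of them lower) and 8 without GR_KO replicate 2, where 1 array fewer makes separation easier. The share of all genes without overlap was not computed for these settings, so these counts have no background beside them. The count of 7 was 4 without GR_KO replicate 4, where the share of all genes at that p in either direction was 3.14%, and 12 without GR_KO replicate 2, where it was 3%. It was 3 after median centring, against 2.41% of all genes, and 11 with array weights, against 8.39%, and the weights also put 1 member lower. Genes of 1 cell type share their cells, so the members are not independent of each other. The list was chosen with earlier results of these data known, so these counts and shares describe it and do not test it.

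Promoter sequence is shown for Apln, Ephb4, Kdr, Cldn5 and Eng, which are 5 of the 7 members with an unadjusted p under 0.05. ETS factors, of which Ets1 and Erg are members here, bind such promoters. Tie1, with an unadjusted limma p of 0.187, was added because its promoter held 2 ETS matches. It is an example picked for its matches, and Egfl7, which also had promoters with 2 matches, is not shown. RefSeq promoters of build GRCm38.p6 were given for 17 of the 33 genes, 21 windows in all, each from 250 bases before the start to 50 after it. Those without an entry include Sox18 and Ptprb. The ETS motif was searched as CNGGAAG on both strands and was found in 12 of the 21 windows (57.1%), against 31.9% of all 32851 promoters. The SoxF core AACAAT was found in 3 windows (14.3%, against 10.7% of all), in Emcn, Erg and Tek. The GATA motif AGATAA was found in 2 (9.52%, against 11.2%), in Erg and Tek. The palindromic glucocorticoid response element, whose partly free letters are not spelled out here, was found in 0 windows, against 0.475% of all promoters, and no match says only that its letters are not in these windows. None of these motifs contains another, and a match is not shown to be bound. Below are the 250 bases before the start, 5′ to 3′ on the gene's strand, with ETS matches in capitals, all of them on the opposite strand. The windows are chrX:48034854-48035103 (minus strand) for Apln, chr5:137349859-137350108 (plus) for Ephb4, chr4:118489850-118490099 (minus) for Tie1, chr5:75978456-75978705 (minus) for Kdr, chr16:18776597-18776846 (plus) for Cldn5 and chr2:32646345-32646594 (plus) for Eng.
Apln: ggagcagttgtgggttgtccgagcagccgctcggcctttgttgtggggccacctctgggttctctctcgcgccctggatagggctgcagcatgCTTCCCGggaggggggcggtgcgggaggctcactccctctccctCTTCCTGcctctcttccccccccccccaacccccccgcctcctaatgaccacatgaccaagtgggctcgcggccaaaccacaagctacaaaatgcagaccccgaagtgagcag
Ephb4: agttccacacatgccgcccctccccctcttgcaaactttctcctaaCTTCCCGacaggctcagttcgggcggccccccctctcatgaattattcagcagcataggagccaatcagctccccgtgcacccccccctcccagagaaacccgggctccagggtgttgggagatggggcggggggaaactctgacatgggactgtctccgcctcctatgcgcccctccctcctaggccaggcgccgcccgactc
Tie1: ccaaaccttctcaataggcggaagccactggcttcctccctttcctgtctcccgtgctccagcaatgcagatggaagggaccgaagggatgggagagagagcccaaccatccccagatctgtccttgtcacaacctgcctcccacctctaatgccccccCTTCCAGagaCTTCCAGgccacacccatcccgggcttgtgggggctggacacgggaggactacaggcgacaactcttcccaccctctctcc
Kdr: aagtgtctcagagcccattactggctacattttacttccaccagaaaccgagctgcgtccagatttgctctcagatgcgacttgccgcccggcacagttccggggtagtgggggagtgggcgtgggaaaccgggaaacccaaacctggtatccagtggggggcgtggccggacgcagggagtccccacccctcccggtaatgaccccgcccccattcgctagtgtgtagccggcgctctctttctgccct
Cldn5: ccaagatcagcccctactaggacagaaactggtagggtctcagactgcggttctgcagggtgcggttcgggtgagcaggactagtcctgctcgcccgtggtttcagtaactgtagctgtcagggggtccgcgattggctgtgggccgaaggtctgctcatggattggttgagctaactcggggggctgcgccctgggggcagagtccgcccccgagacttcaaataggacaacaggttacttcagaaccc
Eng: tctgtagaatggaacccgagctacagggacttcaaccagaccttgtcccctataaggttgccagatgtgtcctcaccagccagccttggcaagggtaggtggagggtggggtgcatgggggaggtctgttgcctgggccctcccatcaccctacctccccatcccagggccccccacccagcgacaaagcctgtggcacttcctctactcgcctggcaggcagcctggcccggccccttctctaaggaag
Apln and Tie1 each held 2 matches before the start, Ephb4 held 1, and Kdr, Cldn5 and Eng held 0. The first match of Apln began 157 bases before the start and the first of Tie1 began 91 bases before it. The log2 fold changes of these genes, given below, lay between 0.27 and 0.66.

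The authors had scaled all arrays alike, and array medians ran from 18 to 26. WT replicate 4 stood apart: the geometric mean of its signals at 7 spike-in probe sets was 3.17-fold that of the other WT arrays. Spike-in signals come from RNA added in fixed amounts. The 3′ to 5′ signal ratio of WT replicate 4 for Gapdh was 1.2 where the other 7 arrays had 0.797 to 0.915. Its actin 3′ to 5′ ratio of 1.73 lay within the 0.991 to 1.84 of the others. The targeted gene, Nr3c1, had a log2 fold change of -1.07 ± 0.29 (SE) at its brightest probe set, which did not pass the threshold (limma adjusted p = 0.777). Its WT signals were 289, 213, 287 and 513 and its GR_KO signals 222, 169, 120 and 105, and the groups overlapped at GR_KO replicate 1 and WT replicate 2. Fkbp5, a receptor target, had a log2 fold change of -1.95 (limma adjusted p = 0.0132). The myofibre genes Acta1 and Ckm and the endothelial markers Pecam1 and Cdh5 all passed the signal filter. No label ties the samples to separate animals, and p-values therefore reflect the spread among arrays, part of which may be technical.

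The 7 members with the smallest p-values differed in how their arrays were spread. Cldn5 encodes claudin-5, a protein of endothelial tight junctions. Its signals were 400, 313, 361 and 310 on the WT arrays and 417, 413, 577 and 772 on the GR_KO arrays. Every GR_KO array lay above every WT array, but GR_KO replicates 1 and 2 lay only just above WT replicate 1. The log2 fold change was 0.61 ± 0.20 (SE, 95% interval 0.16 to 1.06), a 1.53-fold difference with an unadjusted p of 0.0118 and an adjusted p of 0.880. It was 0.43 without GR_KO replicate 4.

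Ephb4, the receptor for ephrin-B2 that marks veins, had a tight mutant group. In WT muscle the signals were 60, 65, 65 and 48, and in GR_KO muscle they were 84, 82, 80 and 81. The groups did not overlap, and the GR_KO SD was 1.71 around a mean of 81.8 against 59.5 ± 8.02 in WT (SD, n = 4). The log2 fold change was 0.47 ± 0.16 (SE), 1.38-fold, with an interval from 0.11 to 0.83 and an unadjusted p of 0.0158. Ptprb encodes VE-PTP, a phosphatase that restrains signalling by Tek and acts at endothelial junctions. Its signals were 655, 658, 679 and 540 in WT and 739, 877, 796 and 807 in GR_KO muscle, also without overlap. This gave a log2 fold change of 0.35 ± 0.13 (SE, 1.27-fold, unadjusted p = 0.0190). A further Ptprb probe set above the signal filter did not show it: its WT signals were 546, 397, 439 and 640, its GR_KO signals 678, 404, 477 and 395, and its log2 fold change -0.060.

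Apln encodes apelin, a peptide made by growing endothelial tip cells among other cells, and had the highest fold change of the list at 1.58. Its WT signals were 60, 73, 74 and 37 and its GR_KO signals 118, 76, 102 and 82. The groups did not overlap, although GR_KO replicate 2 lay within 2 units of WT replicate 3. The log2 fold change was 0.66 ± 0.25 (SE, interval 0.12 to 1.21, unadjusted p = 0.0216), and it was 0.44 without WT replicate 4. Its receptor Aplnr had signals of 896, 1178, 1427 and 627 in WT and 1159, 1103, 1643 and 1422 in GR_KO muscle, and the groups overlapped. The log2 fold change of Aplnr was 0.42 ± 0.24 (SE), with 0.36 at its other probe set, and it was 0.20 without WT replicate 4.

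Sox18 is a SoxF transcription factor of developing arteries and lymphatic vessels. Its signals were 327, 393, 376 and 231 in WT and 399, 401, 493 and 707 in GR_KO muscle. The lowest GR_KO array lay above the highest WT array by a small margin, and GR_KO replicate 4 was far above the rest. Sox18 had a log2 fold change of 0.58 ± 0.22 (SE, unadjusted p = 0.0236). Kdr, the main signalling receptor for VEGF, had signals of 671, 621, 571 and 578 in WT and 651, 857, 763 and 855 in GR_KO muscle. GR_KO replicate 1 lay within the WT range, and the other 3 lay above it. The Kdr log2 fold change was 0.35 ± 0.13 (SE, 1.28-fold, unadjusted p = 0.0241). Eng encodes endoglin, a co-receptor for ligands of the BMP family on endothelium. Its signals were 511, 717, 659 and 567 in WT and 703, 699, 1062 and 766 in GR_KO muscle, with overlap at WT replicate 2. Eng had a log2 fold change of 0.39 ± 0.17 (SE, unadjusted p = 0.0447), or 0.25 without GR_KO replicate 3. The dimmer Eng probe set had WT signals of 173, 177, 174 and 154 and GR_KO signals of 196, 235, 238 and 220, which did not overlap, and its log2 fold change was also 0.39 (SE 0.11).

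**Figure D1:**
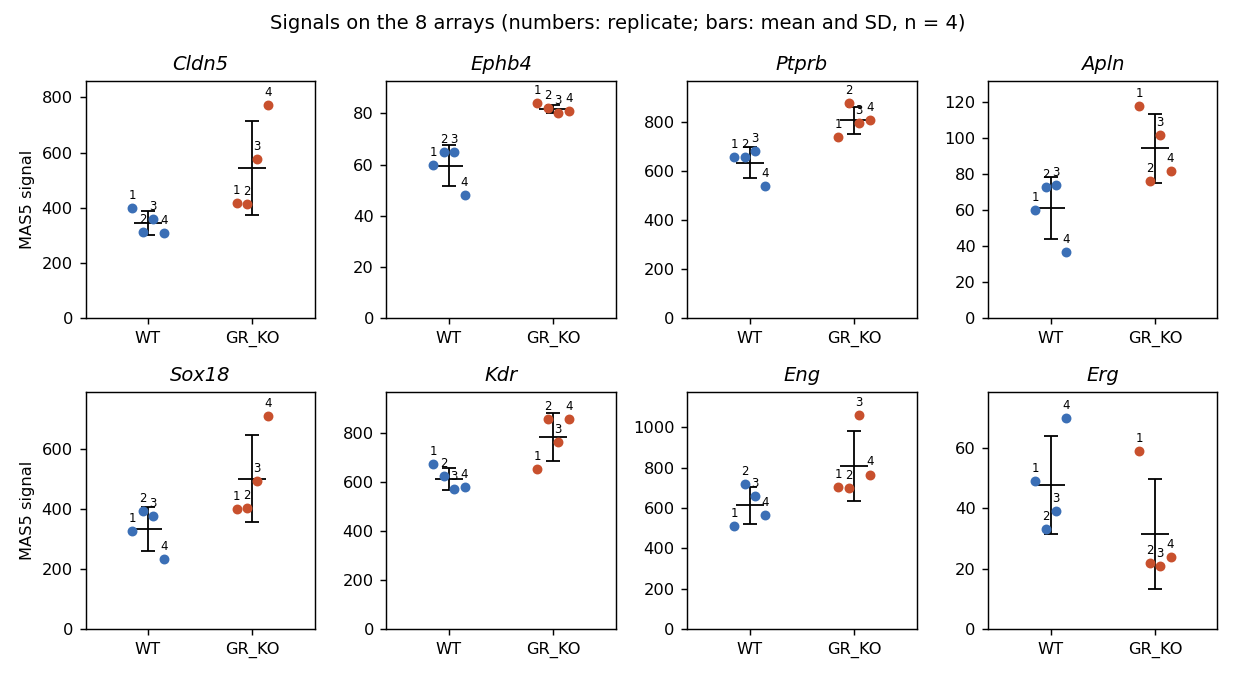
MAS5 signal (vertical axis, linear, from 0) of the 7 members with unadjusted p under 0.05 and of Erg, in the WT and GR_KO groups; points are arrays with their replicate number, bars the mean and SD of 4. Ephb4 has 4 GR_KO signals between 80 and 84 above all WT signals, while in Erg the WT replicate 4 signal of 70 and the GR_KO replicate 1 signal of 59 stand above the others.

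Among the receptor kinases, 3 of 4 had log2 fold changes above 0 and Kdr alone had an unadjusted p under 0.05. Flt1 binds VEGF tightly and limits its action on Kdr. Its signals were 332, 280, 277 and 314 in WT and 318, 394, 326 and 375 in GR_KO muscle, with a log2 fold change of 0.23 ± 0.13 (SE). The other Flt1 probe sets above the filter had -0.042, -0.31 and -0.26, so its direction rested on the probe set. Tie1, the partner receptor of Tek, had signals of 289 ± 52.8 in WT and 350 ± 77.6 in GR_KO muscle (SD, n = 4) and a log2 fold change of 0.27 ± 0.19 (SE), and the latter was 0.13 without WT replicate 4. Tek, the angiopoietin receptor, had signals of 262, 178, 235 and 275 in WT and 302, 169, 207 and 210 in GR_KO muscle. The groups overlapped fully, and its log2 fold change was -0.11 ± 0.20 (SE).

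Of the 9 other signalling receptors and ligands, 7 lay above 0, with a median of 0.22. Beside Apln, Aplnr, Ephb4 and Eng these included Ramp2, which turns the calcitonin-receptor-like receptor into an adrenomedullin receptor. Ramp2 had 481 ± 107 in WT and 559 ± 120 in GR_KO muscle (SD, n = 4), and its log2 fold change of 0.22 was 0.063 without WT replicate 4. Efnb2, the arterial ligand of Ephb4, had 107 ± 28.2 and 117 ± 32.4, a log2 fold change of 0.13 that was -0.046 without WT replicate 4. Its other probe set above the filter had 0.076. Robo4, a guidance receptor of quiescent endothelium, had 199 ± 15.4 and 217 ± 28.7 and a log2 fold change of 0.12 ± 0.14 (SE). The Robo4 value was 0.058 without GR_KO replicate 4 and 0.21 without GR_KO replicate 2.

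Both remaining receptors of this group lay below 0. S1pr1, the sphingosine-1-phosphate receptor that stabilises vessels and also guides lymphocytes out of lymph nodes, had signals of 175, 140, 138 and 275 in WT and 166, 155, 119 and 154 in GR_KO muscle. WT replicate 4 was its highest array, and the log2 fold change of -0.24 ± 0.22 (SE) was -0.027 without it. Clec14a, an endothelial lectin that binds the matrix protein Mmrn2, had dim signals of 47, 36, 42 and 48 in WT and 46, 30, 42 and 47 in GR_KO muscle. Its groups overlapped fully, with a log2 fold change of -0.081 ± 0.22 (SE).

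The 5 transcription factors split. Of the SoxF genes, which act in overlapping ways in arteries and lymphatic vessels, Sox18 lay highest, Sox7 had 0.23 ± 0.17 (SE) and Sox17 had 0.058 ± 0.15. Sox7 signals were 152 ± 31.6 in WT and 175 ± 13.9 in GR_KO muscle (SD, n = 4), and its log2 fold change was 0.077 without WT replicate 4. Sox17 signals were 155, 124, 162 and 168 in WT and 164, 143, 157 and 167 in GR_KO muscle, and a dimmer Sox17 probe set had a log2 fold change of -0.13.

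Both ETS factors lay below 0. Erg keeps adult endothelium quiescent and had the lowest log2 fold change of the list, -0.69 ± 0.36 (SE, interval -1.49 to 0.11, unadjusted p = 0.0853). Its signals were 49, 33, 39 and 70 in WT and 59, 22, 21 and 24 in GR_KO muscle. GR_KO replicate 1 lay among the WT arrays, and the other 3 GR_KO arrays lay below all of them, near the filter level of 19.4. The log2 fold change of Erg was -1.04 without GR_KO replicate 1 and -0.485 without WT replicate 4, its highest array. Ets1 is made by endothelial cells and by lymphocytes. On the log2 scale its signals ranged more widely than those of any other member, with 175, 139, 239 and 390 in WT and 474, 164, 102 and 152 in GR_KO muscle. GR_KO replicate 1 and WT replicate 4 were high, and the log2 fold change was -0.23 ± 0.44 (SE). It was 0.051 without WT replicate 4. The Ets1 probe sets disagreed, with -0.30, 0.24 and 1.17 at the others above the filter.

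All 9 genes of the junctions, the surface and lumen formation lay above 0, with a median log2 fold change of 0.42, or 0.27 without WT replicate 4, and a range from 0.27 to 0.61. The grouping by role was a choice that counted Ptprb here and the surface lectin Clec14a, at -0.081, among the receptors. With Clec14a counted here, not all would lie above 0. Esam, an adhesion molecule of endothelial tight junctions, had signals of 648, 668, 776 and 463 in WT and 632, 808, 939 and 1120 in GR_KO muscle. GR_KO replicates 2, 3 and 4 lay above all WT arrays and replicate 1 did not, with a log2 fold change of 0.45 ± 0.20 (SE, unadjusted p = 0.0507). Cdh5, the VE-cadherin of adherens junctions, had 540 ± 124 in WT and 720 ± 174 in GR_KO muscle (SD, n = 4) and a log2 fold change of 0.42, which was 0.23 without WT replicate 4. Its dim probe set had 0.078.

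Further genes of this group had intervals that included 0. Emcn, a sialomucin of capillaries and veins, had 156 ± 34.1 in WT and 216 ± 57.6 in GR_KO muscle (log2 fold change 0.46, or 0.28 without WT replicate 4). Cd34, a sialomucin of endothelium that satellite cells and fibroblast-like cells of muscle also carry, had 328 ± 85.5 and 451 ± 101 (0.47, or 0.28 without WT replicate 4). Rasip1, an intracellular Ras-interacting protein needed for vessels to form a lumen, had 144 ± 24.7 and 188 ± 33.9, with a log2 fold change of 0.39 ± 0.18 (SE). Pecam1, the adhesion molecule CD31, is also found on platelets and leukocytes. It had 285 ± 62.6 and 353 ± 107, with a log2 fold change of 0.29 ± 0.22 (SE) that was 0.10 without GR_KO replicate 4. Icam2, a ligand for leukocyte integrins, had 153 ± 16.7 and 186 ± 34 and a log2 fold change of 0.27 ± 0.17 (SE).

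The 3 secreted proteins lay above 0 by unequal amounts. Vwf, the platelet-binding factor stored by endothelial cells and megakaryocytes, had 197 ± 53.8 in WT and 277 ± 66.5 in GR_KO muscle (SD, n = 4). Its log2 fold change was 0.51 ± 0.24 (SE, unadjusted p = 0.0531), or 0.30 without WT replicate 4. Mmrn2, a multimerin of the vessel matrix, had 396 ± 13.2 and 437 ± 47.7 and a log2 fold change of 0.14, or 0.089 without GR_KO replicate 3, with 0.33, 0.0064 and 0.17 at its other probe sets. Egfl7, a secreted protein that guides tube formation, had signals of 570, 573, 521 and 643 in WT and 618, 593, 708 and 657 in GR_KO muscle. The Egfl7 groups overlapped only through WT replicate 4, its log2 fold change was 0.16 ± 0.13 (SE), and its other probe sets had 0.15, 0.084 and -0.12.

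Of the genes for endothelial function, Gpihbp1 anchors lipoprotein lipase on the capillary wall, where it releases fatty acids for the fibres. Its signals were 803, 870, 786 and 474 in WT and 776, 803, 1175 and 1288 in GR_KO muscle. GR_KO replicates 3 and 4 were above all WT arrays and replicates 1 and 2 were not, and the log2 fold change of 0.46 ± 0.23 (SE) was 0.27 without WT replicate 4. Aqp1, the water channel of capillaries and red cells, had signals of 3192, 3230, 3064 and 2947 in WT and 2841, 3359, 4578 and 4415 in GR_KO muscle. Its WT arrays lay close together and its GR_KO arrays fell on both sides of them, and the log2 fold change was 0.26 ± 0.17 (SE), or 0.16 without GR_KO replicate 3. Nos3, the endothelial nitric oxide synthase, had 245 ± 7.85 in WT and 273 ± 66.6 in GR_KO muscle (SD, n = 4) and a log2 fold change of 0.13 ± 0.17 (SE). Without GR_KO replicate 4 the Nos3 value was -0.009.

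**Figure D2:**
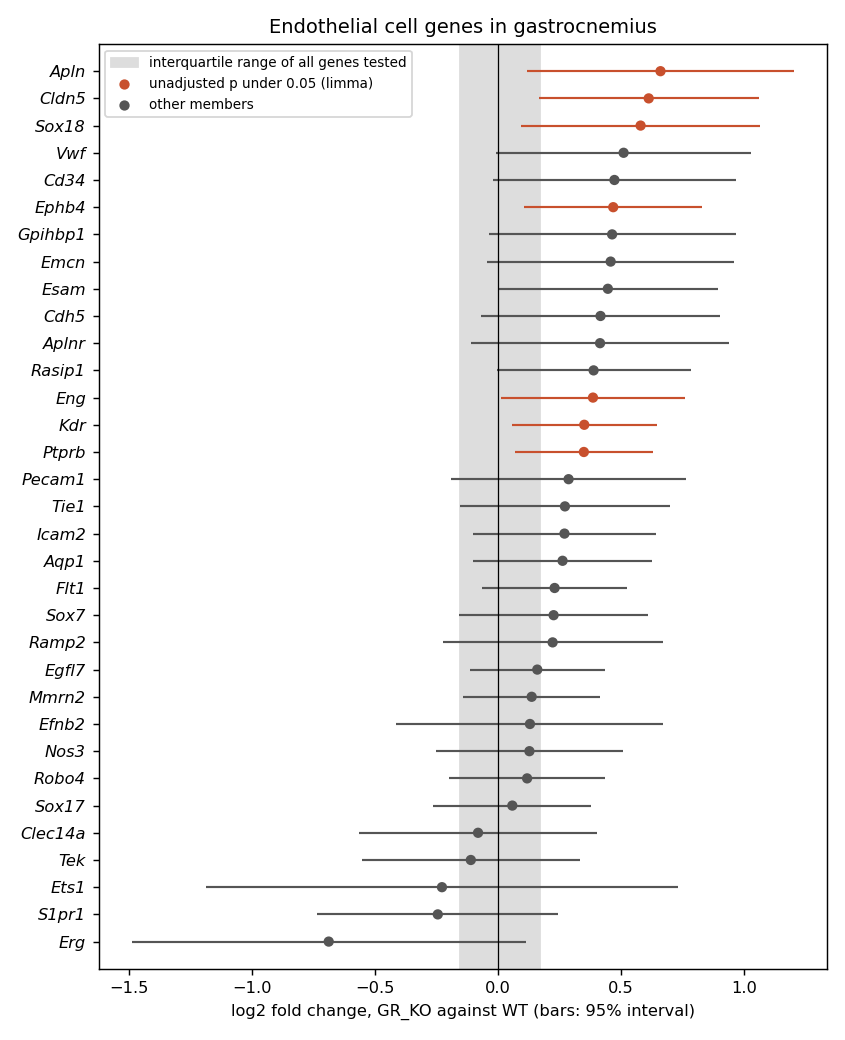
Log2 fold change of GR_KO against WT (horizontal axis) for the 33 genes (rows), with 95% intervals from limma; orange marks the 7 genes with unadjusted p under 0.05, and the grey band is the interquartile range of all 11062 genes tested. Most points lie to the right of 0, and the intervals of 26 genes include 0.

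The spread among arrays was shared by many members. The median deviation of the 33 genes from their own means was -0.093, -0.084, -0.0086 and -0.40 on the WT arrays (log2 scale). It was 0.049, -0.046, 0.22 and 0.30 on the GR_KO arrays, so that GR_KO replicate 2 lay below WT replicate 3. WT replicate 4 was lowest and GR_KO replicates 3 and 4 were highest. Over all genes tested the same median lay between -0.013 and 0.026 on every array.

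WT replicate 4 held the lowest of the 8 signals for 18 members (54.5%), against 27.9% of all genes tested, and GR_KO replicate 4 the highest for 15 (45.5%), against 14.3%. Among the 28 members above 0, WT replicate 4 lay below the other 3 WT arrays for 20. Among the 5 members below 0 (Erg, S1pr1, Ets1, Tek and Clec14a), it lay above them for 5. That array enters each fold change, so the sign and its position are not independent. Without WT replicate 4 the median over the 33 genes was 0.23, with 28 above 0. The median was lowest without GR_KO replicate 4, at 0.20, and highest without GR_KO replicate 1, at 0.38. Without WT replicate 4, 15 members had a log2 fold change over 1.5 times closer to 0 or of the other sign. With each of the 8 arrays left out in turn, 23 of the 33 members had a value that moved by over 1.5 times, in either direction, or changed sign for at least 1 array.

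**Figure D3:**
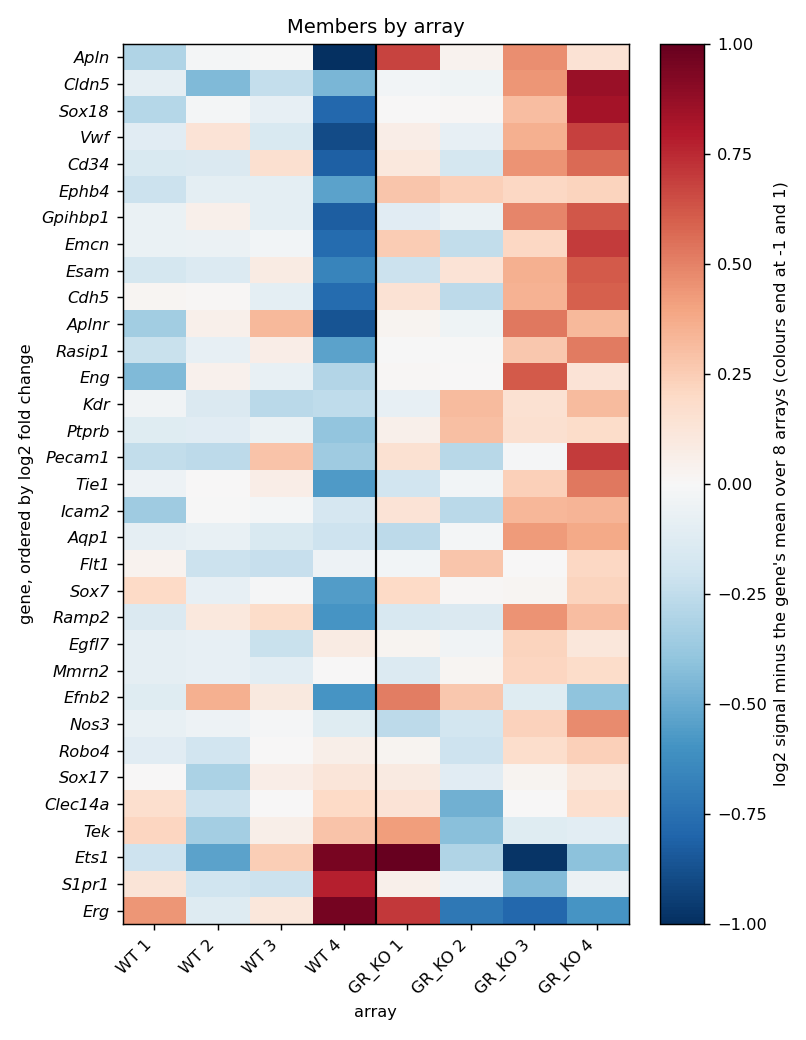
Log2 signal minus the gene's mean over 8 arrays (colour, ending at -1 and 1) for the 33 genes (rows, ordered by fold change) on each array (columns, WT left of the line). WT replicate 4 is blue for most genes in the upper rows and red for S1pr1, Ets1 and Erg at the bottom, which are also red or pale on GR_KO replicate 1.

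Markers of other cells also differed between the arrays, and their part in the endothelial values was not tested. Of 10 leukocyte markers tested, 9 had log2 fold changes below 0, with a median of -0.19. Over all genes tested, 52.2% lay above 0. Of the 10 markers, 0 passed the threshold in limma and 0 had an unadjusted p under 0.05, where 4.63% of all genes tested did. Ptprc, the CD45 antigen of leukocytes, had signals of 10, 91, 84 and 999 in WT and 379, 96, 17 and 11 in GR_KO muscle. It was highest on WT replicate 4 and GR_KO replicate 1, the arrays on which Ets1, Erg and Tek were also highest. The log2 fold changes of Ptprc, Cd74 and Cd52 were -0.87, -0.58 and -1.21. Without WT replicate 4 they were 0.27, -0.031 and -0.54, and without WT replicate 1 they were -1.95, -1.29 and -2.14. The median deviation of the leukocyte list was -1.15, 0.43, 0.28 and 0.96 on the WT arrays and 0.63, 0.47, -0.76 and -0.78 on the GR_KO arrays.

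Fibroblast and matrix genes lay above 0 for 8 of 10, with a median of 0.42. Of these 10, 0 passed the threshold in limma and 2 had an unadjusted p under 0.05, where 4.63% of all genes tested did. Col1a2, a chain of type I collagen, had signals of 1896, 2947, 3099 and 1209 in WT and 2776, 3237, 4305 and 4264 in GR_KO muscle. The Col1a2 log2 fold change was 0.74, or 0.47 without WT replicate 4. The list had its lowest level on WT replicate 4, at -0.85, and its highest on GR_KO replicates 3 and 4, at 0.37 and 0.38, the same arrays as the endothelial genes. Smooth muscle and pericyte genes had a median of 0.14, with 6 of 10 above 0. The 10 myofibre genes had a median of -0.11, with 8 below 0, and a level of 0.73 on WT replicate 4. Myh2 had signals of 6317, 6509, 7798 and 5801 in WT and 4924, 4761, 4174 and 6766 in GR_KO muscle. The groups overlapped at GR_KO replicate 4. The Myh2 log2 fold change was -0.37 ± 0.17 (SE), or -0.43 without WT replicate 4. It ranged from -0.51 to -0.28 with single arrays left out. The 2 genes above 0 were the slow-fibre genes Tnni1 and Myh7, with log2 fold changes of 0.53 and 0.42. Their lowest signals, 142 and 907, were on WT replicate 4, and without that array the fold changes were -0.10 and -0.041.

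**Figure D4:**
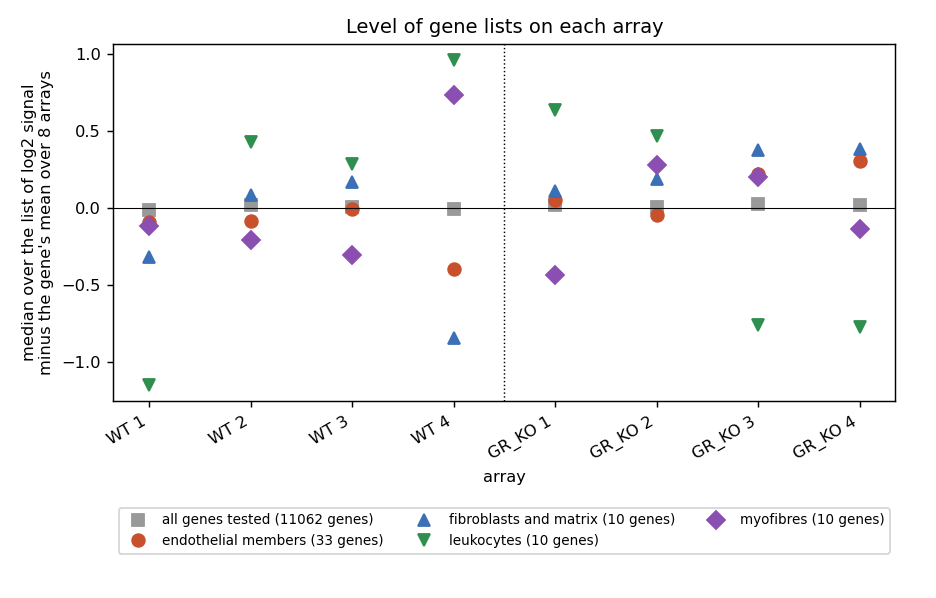
Median over each gene list of log2 signal minus the gene's mean (vertical axis) on each of the 8 arrays (horizontal axis). Endothelial genes and fibroblast genes are lowest on WT replicate 4, at -0.40 and -0.85, where leukocyte and myofibre genes are highest, at 0.96 and 0.73.

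Lists of other endothelial genes had medians closer to the 0.013 of all genes tested. Of 22 tested surface and caveolar genes, 16 lay above 0 with a median of 0.18, and of 17 receptors and Notch genes 10 did with a median of 0.11. Of 15 transcription factors 11 did with a median of 0.096. In these lists together 0 genes passed limma and 5 had an unadjusted p under 0.05, where 4.63% of all genes tested did. Cd93, a lectin of endothelial junctions, had signals of 734, 775, 755 and 554 in WT and 1038, 1287, 819 and 901 in GR_KO muscle, without overlap, and a log2 fold change of 0.51 ± 0.17 (SE, unadjusted p = 0.0122). Plxnd1, the semaphorin receptor of vessels, had 263, 311, 292 and 220 in WT and 323, 326, 376 and 495 in GR_KO muscle, also without overlap (0.47 ± 0.17). Col4a1, a collagen of the vessel basement membrane, Nrp1, a VEGF co-receptor, and Unc5b, a netrin receptor, had 0.39, 0.32 and 0.48. Col4a1 had 0.24 without WT replicate 4, and Unc5b had 0.32 without WT replicate 1.

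On the ligand side, 7 of 10 genes lay above 0, with a median of 0.073, and 0 passed the threshold in limma. Angpt1, the ligand of Tek made by cells around vessels, had signals of 68, 50, 51 and 62 in WT and 91, 100, 60 and 74 in GR_KO muscle. GR_KO replicate 3 lay within the WT range, and the log2 fold change was 0.48 ± 0.21 (SE, unadjusted p = 0.0406). Vegfa, the main VEGF ligand, had 229, 122, 186 and 529 in WT and 296, 160, 118 and 166 in GR_KO muscle. Its highest array was WT replicate 4, and its log2 fold change was -0.39 ± 0.40 (SE), an interval from -1.28 to 0.49. Without that array the Vegfa value was 0.011.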

How the data were processed

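The deposited table holds linear intensity values, rounded to whole numbers, for 45101 probe sets on 8 arrays. The submitters' processing notes name MAS5 as the tool the authors used, with its version and scaling target not given in the sources used here. The number of arrays limits the precision. Control probe sets (64) were left out, and 34945 of the others had 1 gene symbol. Signals of 0 were set to the array's smallest positive value, log2 was taken with no pseudocount, and each gene took its brightest probe set. Genes with a mean above the median probe set (a signal of 19.4) entered the limma 3.58.1 fit in R 4.3.3 (trend, two-sided, group alone), with Benjamini-Hochberg adjustment over 11062 genes at 0.05. Intervals are 95%, and fold changes are GR_KO against WT. Members, gene lists and the rule for named genes were chosen with earlier results of these data known. That rule printed all 8 signals for members with unadjusted p under 0.05, without overlap, below 0, among the 5 brightest or with disagreeing probe sets, and of each other list up to 3 genes with the smallest p. The limma fit was tested on simulated arrays with independent noise for each gene. That test did not cover probe set choice, list medians, counts without overlap, motifs or a spread shared by many genes of an array. Same-numbered samples of the groups correlated at -0.40 to 0.18 in their deviations from group means over genes. With 4 arrays per group and a spread shared by many genes of an array, this cannot decide whether the numbers pair the samples. Figures used Python 3.11.15.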

Additional observations from a re-analysis of the deposited data

Results flagged for a closer look

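Among the 66 sets of 4 signals (33 genes in each group), 6 held an array far from the other 3, where chance gives about 1 in 20. The sets come from the same arrays and are not independent, so this count describes them and does not test them. In WT muscle, replicate 4 stood below the others for Emcn (signal 105), Cdh5 (357), Ptprb (540) and Gpihbp1 (474). WT replicate 3 stood above the others for Pecam1 (378). In GR_KO muscle, replicate 1 stood above the others for Erg (59).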

How the results depend on the processing

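No member passed an adjusted p of 0.05 in limma under any alternative run (smallest adjusted p 0.392, with array weights), while 3 to 12 members had an unadjusted p under 0.05. The share of all genes at that p ran from 2.41% (median centring) to 10.8% (without GR_KO replicate 1). The median of the members stayed above 0, between 0.20 and 0.38. Of 623 recomputed member values, 611 kept their direction. With the probe sets of a gene averaged, Flt1 had -0.094, Sox17 -0.036 and Ets1 0.22, and with array weights Efnb2 had -0.11. With single arrays left out, Tek ranged from -0.27 to 0.0098, Sox17 from -0.037 to 0.11, Nos3 from -0.009 to 0.24, Ets1 from -0.68 to 0.062, Efnb2 from -0.046 to 0.29 and Clec14a from -0.17 to 0.065. Members without overlap numbered 1 after median centring and 5 to 10 with single arrays left out, settings for which the share of all genes was not computed. Over all genes tested, 6 passed, against 0 with no filter, 1 with probe sets averaged, 2 without trend, 10 with array weights and 3 with the spike-in signal as covariate, a fit chosen after the data were seen, and 0 to 5 with single arrays left out. With the replicate number as a block 1 gene passed, 0 of them members, and the members' median was 0.27; no WT array correlated best with the GR_KO array of its own number. The causes were not tested.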

Other observations

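Other cells of the muscle were read from few genes each. Lymphatic endothelium gave 3 tested genes with log2 fold changes from -0.014 (Reln) to 0.32 (Pdpn), and Lyve1 had 0.21. Of the adhesion molecules of activated endothelium, Vcam1 had signals of 34, 33, 28 and 66 in WT and 50, 30, 22 and 21 in GR_KO muscle, highest on WT replicate 4. The log2 fold changes of Vcam1, Selp and Icam1 were -0.40, 0.28 and 0.040, so that 2 of 3 lay above 0, and without WT replicate 4 they were -0.13, 0.36 and 0.29. The platelet genes Pf4, Itga2b and Gp1bb had 0.21, 0.24 and 0.23, and the red cell genes Alas2 and Slc4a1 had 0.35 and 0.26. Mbp, a myelin protein of Schwann cells, had signals of 608, 704, 1829 and 377 in WT and 532, 1226, 1983 and 1500 in GR_KO muscle. The adipocyte genes Retn and Adipoq had 0.34 and -0.20. None of these genes passed the threshold in limma, and 0 had an unadjusted p under 0.05, where 4.63% of all genes tested did.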
